A study of Mus musculus with 12 samples.

Results

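The effect of XBP1 loss on hypertrophic cartilage without a misfolding collagen was examined by comparing 3 Xbp1CartΔEx2 arrays with 3 wildtype arrays, 6 of the 12 arrays of the study. In Xbp1CartΔEx2 mice, Cre recombinase driven by Col2a1 had excised the second exon of Xbp1, so the deletion was directed at chondrocytes, and wildtype mice kept both alleles intact. Both groups were 2 weeks old, of mixed background, and carried no collagen X mutation. The other 6 arrays were used only to compare the effect of XBP1 loss between backgrounds: ColXN617K mice carried a knock-in substitution in collagen X that makes it misfold, and C/X mice carried that allele together with Xbp1CartΔEx2. Each array held RNA from the hypertrophic zone microdissected from the proximal tibial growth plate of 1 mouse, linearly amplified before hybridization to a whole-genome Illumina bead array. The probes examined were the 12023 of 45281 whose detection score passed 0.95 on 3 or more of the 12 arrays, named through the platform's probe annotation. Of these, 9866 carried 1 gene symbol, 5 carried several and 2152 carried none, and the named probes covered 7642 genes.

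XBP1 is a transcription factor made only after IRE1, a sensor in the membrane of the endoplasmic reticulum (ER), has spliced the Xbp1 transcript during ER stress. The spliced factor is known to switch on genes for protein folding, translocation, glycosylation, degradation and vesicle transport, and it is needed in several cell types that secrete large amounts of protein. IRE1 also cleaves other transcripts, a process termed regulated IRE1-dependent decay (RIDD), and acts beside PERK and ATF6, the other sensors of the unfolded protein response. Hypertrophic chondrocytes are the last stage of growth plate cartilage before bone, and they secrete collagen X.

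Wildtype arrays had 17.3% to 17.7% of probes above background and Xbp1CartΔEx2 arrays 19.6% to 23.1%, ranges that did not overlap. Within each of these 2 genotypes the arrays correlated at 0.957 or above across the tested probes. The other arrays were less even, with correlations down to 0.867 within ColXN617K and 0.915 within C/X. They had 17.1% to 28.4% and 17.2% to 24.4% of probes above background. The female-specific transcript Xist read 9.42, 6.80 and 9.41 on the normalized log2 scale in the wildtype arrays and 6.76, 6.84 and 6.73 in the Xbp1CartΔEx2 arrays. The Y-linked gene Eif2s3y read 7.01, 8.55 and 6.93 in wildtype and 8.25, 7.92 and 8.37 in Xbp1CartΔEx2. By these transcripts wildtype arrays 1 and 3 stood apart from the other 4 arrays, so sex was not balanced between the genotypes and its part in the results below was not tested. On the X chromosome 1.43% of named probes passed the test described below, against 1.76% of all named probes with a chromosome. These shares are a description and do not measure the part of sex in the results. The replicates were separate mice, and the small number of arrays limits the precision of every estimate.

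The targeted gene did not differ in this assay. The Xbp1 probe read 10.49, 11.03 and 10.67 in wildtype and 10.94, 10.82 and 10.96 in Xbp1CartΔEx2, so the groups overlapped. The log2 fold change was 0.18 (SE 0.27, 95% interval -0.41 to 0.77, adjusted p = 0.735, limma). Where this probe lies relative to exon 2 is not given in the sources used here, so its level does not check the deletion. Col10a1, which encodes collagen X and defines the zone, read 11.75, 12.47 and 11.97 in wildtype and 12.18, 11.16 and 11.70 in Xbp1CartΔEx2. Its log2 fold change of -0.39 (95% interval -1.26 to 0.49, adjusted p = 0.612) lay within the spread of the arrays. The chondrocyte genes Col2a1, Acan and Matn1 stood above 13.8 on all 6 arrays by their brightest probes, with log2 fold changes of -0.03, 0.01 and 0.02.

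Of the 12023 probes, 141 were higher in Xbp1CartΔEx2 (1.17%) and 71 were lower (0.591%) when the fold change had to reach 2 and the adjusted p (limma) could not exceed 0.01, and probes past both limits are termed called here. The 212 called probes included 173 with a gene symbol, for 168 genes, and 39 without one. Without the fold limit 217 probes had an adjusted p of at most 0.01, and 2750 had an unadjusted p under 0.05. The median log2 fold change over all tested probes was 0.01, and it was 1.78 for probes called higher and -1.69 for probes called lower. The 3 arrays of each genotype did not overlap for 2280 probes that were higher in Xbp1CartΔEx2 (19%) and for 2137 that were lower (17.8%), and the counts of non-overlapping members below are read against these shares. In bulk tissue of this kind, fewer cells of a type and less RNA per cell cannot be told apart.

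The probes called higher were mostly dim in wildtype. Their median level rose from 6.91 to 8.90, against a median of 8.26 for all tested probes in wildtype, and 94 of the 141 were above background on no wildtype array. Of these, 27 were above background only on Xbp1CartΔEx2 arrays among all 12, so they entered the test through the group in which they are high. Of the probes called lower, 47 of 71 were above background on all 6 arrays and their median level fell from 10.43 to 8.28. Where a probe was above background on no array of the dimmer genotype, its change is given as a bound: the mean of the brighter genotype over the mean of, on each array, either the lowest value among probes above background or the probe's own value, whichever is higher. With only probes above background on all 6 arrays, a choice made after seeing the data, 25 probes were called higher and 48 lower. Scaling by medians in place of quantiles left 5 higher and 3 lower with medians of all probes, and 44 higher and 51 lower with medians of tested probes. The higher share of probes above background on the Xbp1CartΔEx2 arrays moved with the calls of dim probes, and its part in them was not tested.

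**Figure D1:**
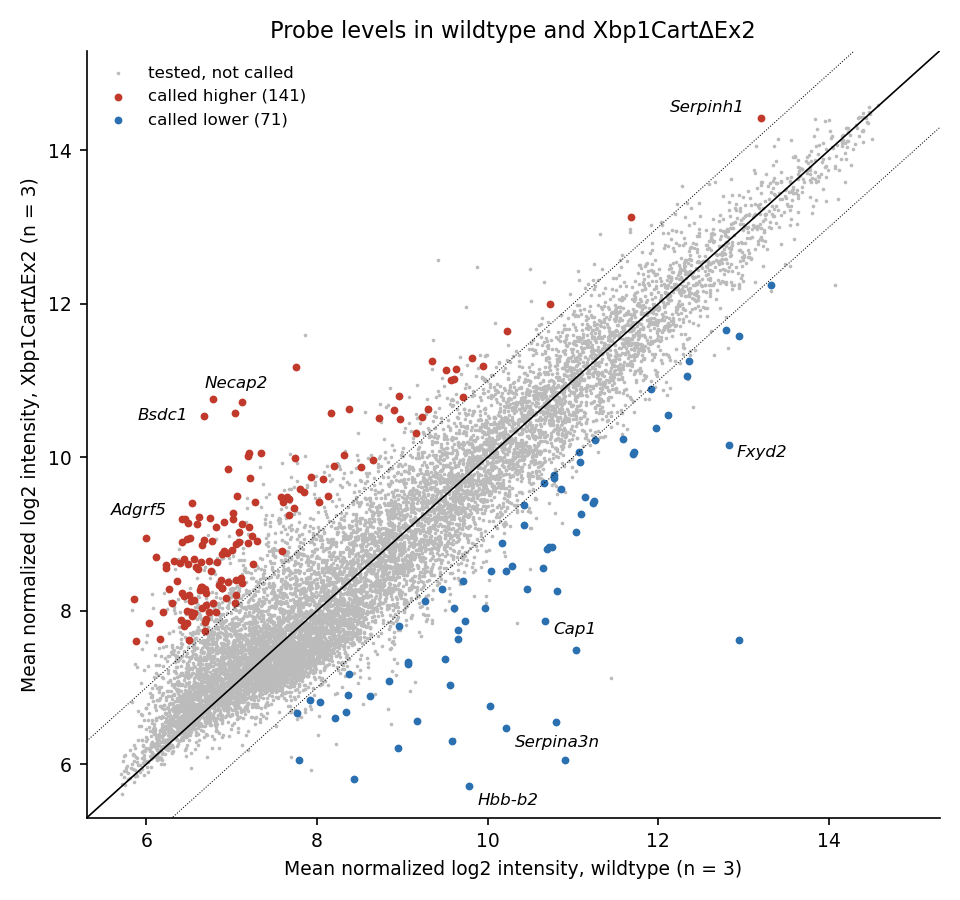
Mean normalized log2 intensity of each of the 12023 tested probes in Xbp1CartΔEx2 (y axis) against wildtype (x axis), 3 arrays each, with probes called higher in red (141) and called lower in blue (71). The solid line marks equal levels and the dotted lines a fold change of 2, and the red points lie mostly at the dim end of the wildtype axis.

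When each of the 12 arrays was left out of the fit in turn, between 57 and 480 probes were called. In all 12 of these fits 50 of the 212 probes stayed called, 34 higher and 16 lower, of which 41 had a gene symbol. Leaving out wildtype array 1 gave 57 calls, wildtype array 2 gave 72, and Xbp1CartΔEx2 arrays 1, 2 and 3 gave 105, 78 and 63. Leaving out array 3 of ColXN617K, which enters the fit only through the shared estimate of spread, gave 480. Genes named below as called in all 12 fits depended least on any 1 array, and for the others the number of fits is given. The detection filter was kept from all 12 arrays in these fits, and 30 of the 50 probes were above background on no wildtype array. Probes above background on the 3 arrays of 1 genotype only, such as Adgrf5, Adgrd1 and Hbb-b2, would fail the filter without 1 of those arrays. For such probes the number of fits is no support.

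The ER genes were the group in which XBP1 is known to act, and across 5 lists they did not move to one side. The lists, covering stress sensors, chaperones and folding enzymes, ER-associated degradation, translocation with N-glycosylation, and vesicle transport, held 111 tested genes, of which 1 was called (0.901%). Their median log2 fold change was -0.04, beside 0.01 for all tested probes. Without overlap between the genotypes, 29 of these genes were higher (26.1%, against 19% of all probes) and 25 lower (22.5%, against 17.8%). Without the 8 of these genes that were above background on none of the 6 arrays, the median of the other 103 was 0.01, with 29 higher and 24 lower.

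The chaperones and folding enzymes, which assist proteins inside the ER, comprised 24 tested genes with a median log2 fold change of -0.14, of which 1 was called. That gene was Serpinh1, which encodes HSP47, the ER chaperone of procollagens. Serpinh1 read 13.29, 13.09 and 13.24 in wildtype and 14.40, 14.48 and 14.39 in Xbp1CartΔEx2, with no overlap and little spread. It was 1.22 higher on the log2 scale (SE 0.21, adjusted p = 0.00586) and was called in 5 of the 12 leave-one-out fits. Genes of bone matrix, many of them for fibrillar collagens, also stood higher on these arrays, with a summed list level of 15.84 to 16.30 on the log2 scale against 15.43 to 15.58 in wildtype, and their part in the Serpinh1 difference was not tested.

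Several ER genes known from the unfolded protein response were looked at singly, and those given next did not pass the test. They are not all mainly XBP1 targets: the study lists Creld2, Hsp90b1, Hspa5 and Derl3 as targets of ATF6. Dnajb9, the co-chaperone ERdj4, read 9.22, 9.88 and 9.12 in wildtype and 9.03, 8.68 and 8.90 in Xbp1CartΔEx2, a log2 fold change of -0.53 (adjusted p = 0.283) with all mutant arrays below all wildtype arrays. Creld2, a stress-induced folding protein, read 10.07, 10.40 and 10.06 against 9.91, 9.10 and 9.22, a log2 fold change of -0.77 (adjusted p = 0.106). Hsp90b1, the ER member of the HSP90 family, lay on the other side with 11.77, 11.92 and 11.84 against 12.40, 12.24 and 11.93, a log2 fold change of 0.35 (adjusted p = 0.414). For all 3 genes the arrays of the genotypes did not overlap, and none of the differences passed the test. Manf, a secreted stress protein, had a log2 fold change of -0.71 (adjusted p = 0.0673), and the disulfide isomerases P4hb, Pdia3 and Pdia5 had -0.10, 0.06 and -0.17. Hspa5 (BiP), Calr, Sdf2l1, Derl3 and Pdia6 were above background on none of the 6 arrays by the probes tested, so no fold change is given for them.

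The promoters of such genes carry the element through which ATF6 and XBP1 are known to act, the ER stress response element, in which CCAAT and CCACG are separated by 9 bases. Windows of 250 bases before to 50 bases after the RefSeq start (GRCm38.p6) are shown for Creld2, Hspa5 and Hsp90b1, because they carry the whole element and their probes behaved differently, with the element or its reverse complement in capitals. Creld2 lies at chr15:88819396-88819695 on the forward strand and holds the element in reverse. Hspa5 lies at chr2:34771840-34772139 on the forward strand, and Hsp90b1 at chr10:86705395-86705694 on the reverse strand with an element in each direction.
Creld2: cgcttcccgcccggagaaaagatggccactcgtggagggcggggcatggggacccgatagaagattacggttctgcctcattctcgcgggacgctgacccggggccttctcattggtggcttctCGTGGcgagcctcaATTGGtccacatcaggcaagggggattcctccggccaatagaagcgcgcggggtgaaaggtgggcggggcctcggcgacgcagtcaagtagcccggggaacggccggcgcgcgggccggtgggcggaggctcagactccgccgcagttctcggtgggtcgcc
Hspa5: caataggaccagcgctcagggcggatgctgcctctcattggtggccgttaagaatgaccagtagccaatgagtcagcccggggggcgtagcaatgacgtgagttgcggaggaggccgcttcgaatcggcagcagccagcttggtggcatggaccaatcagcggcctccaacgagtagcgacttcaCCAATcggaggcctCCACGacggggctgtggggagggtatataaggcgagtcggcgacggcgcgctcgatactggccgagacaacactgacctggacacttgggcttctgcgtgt
Hsp90b1: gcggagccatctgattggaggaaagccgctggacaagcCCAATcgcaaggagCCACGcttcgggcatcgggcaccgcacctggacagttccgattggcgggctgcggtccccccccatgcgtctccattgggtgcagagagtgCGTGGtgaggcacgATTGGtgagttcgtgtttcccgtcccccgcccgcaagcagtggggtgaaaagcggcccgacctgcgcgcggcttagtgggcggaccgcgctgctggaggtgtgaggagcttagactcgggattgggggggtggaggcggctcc

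Searched on both strands, the whole element was in 0.119% of 32851 promoters of the same length, in 0.162% of the promoters of tested genes and in 7.41% of 108 promoters of the ER lists. The XBP1-type core TGACGTGG, whose last bases are the reverse complement of CCACG, was in 0.676%, 0.834% and 7.41%. The core CCACG, which both longer motifs contain on one strand, was in 32.8%, 46.4% and 70.4%. Promoters of genes called higher held the whole element in 0 of 111 and TGACGTGG in 0.901%, and those of genes called lower in 0 of 63 and 1.59%. Of the 16 tested ER genes with either longer motif, Calr, Derl3, Ero1b, Hspa5 and Pdia6 were above background on none of the 6 arrays. Of the other 11, 6 had a negative and 5 a positive log2 fold change, with a median of -0.16, and 4 were lower and 4 higher without overlap. Besides Creld2, the lower ones were Txndc11, Copb2 and Stx5a at log2 fold changes of -0.61, -0.80 and -0.50. Besides Hsp90b1, the higher ones were Kdelr3 and Syvn1 at 0.37 and 0.16 and Sec24d, a COPII coat subunit, at least 1.19-fold higher from wildtype arrays below background. None of the 16 was called.

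Among sensors and transducers, the median log2 fold change of 8 tested genes was 0.15 and none was called. Ern1, which encodes IRE1, was above background on 1 of the 6 arrays. Atf4, the transcription factor downstream of PERK, had a log2 fold change of -0.13 (adjusted p = 0.777). Creb3l2, an ATF6-related factor that in mice and fish is needed for cartilage matrix secretion, read 7.36, 7.43 and 6.93 in wildtype, below background, and 8.22, 8.03 and 9.03 in Xbp1CartΔEx2. It was at least 1.72-fold higher (adjusted p = 0.018), short of the limit on p.

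The 17 genes of ER-associated degradation, which return misfolded proteins to the cytosol, had a median log2 fold change of -0.04 with none called. Herpud1, a component of the retrotranslocation machinery, averaged 12.31 ± 0.34 (SD, n = 3) in wildtype and 11.61 ± 0.20 in Xbp1CartΔEx2 without overlap, at a log2 fold change of -0.70 (adjusted p = 0.0802). Its partners in the same ligase complex differed in sign, with -0.63 for Sel1l (adjusted p = 0.173) and 0.16 for Syvn1, the ligase HRD1 (adjusted p = 0.729).

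Translocation and N-glycosylation genes numbered 32, with a median log2 fold change of 0.04 and none called, and 9 were higher and 9 lower without overlap. Tram1, which encodes a partner of the Sec61 channel, was 0.64 higher on the log2 scale (adjusted p = 0.0417). Gfpt1, the entry enzyme of hexosamine synthesis and a known XBP1 target, read 7.95, 9.54 and 9.02 in wildtype and 6.48, 7.01 and 6.68, below background, in Xbp1CartΔEx2. It was at least 2.96-fold lower with an adjusted p of 0.0532. The channel subunits Sec61a1, Sec61b and Sec61g had log2 fold changes of 0.44, -0.88 and -0.85 (adjusted p from 0.18 to 0.442).

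Of 30 genes for COPII and COPI vesicles, which carry cargo between ER and Golgi, 12 were higher without overlap (40%) and 5 lower (16.7%), with a median log2 fold change of 0.13 and none called. Copa, the alpha subunit of the COPI coat, read 11.22, 11.25 and 11.22 in wildtype and 12.40, 12.08 and 12.44 in Xbp1CartΔEx2, a difference of 1.07 on the log2 scale (SE 0.22, adjusted p = 0.0145). Kdelr2, a receptor that returns ER proteins, was 0.97 higher (adjusted p = 0.0253), while Copb2, another COPI subunit, had -0.80 (adjusted p = 0.0925). Subunits of one coat thus lay on both sides, and the adjusted p of each was above 0.01.

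Targets of PERK, ATF4 and CHOP were tested through 31 genes, with a median log2 fold change of -0.12, 1 called higher, 4 higher without overlap (12.9%) and 9 lower (29.0%). Besides the called gene, 6 members had an adjusted p between 0.01 and 0.05, of which 5 were lower. Ppp1r15a, which encodes GADD34, read 9.70, 9.88 and 9.41 in wildtype and 8.50, 8.25 and 8.45 in Xbp1CartΔEx2, a log2 fold change of -1.26 (SE 0.24, adjusted p = 0.0101). Atf3, an immediate stress transcription factor, read 11.05, 11.34 and 10.97 against 10.47, 9.84 and 10.12, at -0.98 (adjusted p = 0.0132). Ddit3, which encodes CHOP, had -1.17 and -1.12 by its 2 probes (adjusted p = 0.0198 and 0.0373). Trib3, a CHOP-induced pseudokinase, and Sars, the cytosolic seryl-tRNA synthetase, had -0.93 and -1.12 (adjusted p = 0.0455 and 0.034).

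The called member was Aldh1l2, a mitochondrial enzyme of folate metabolism, which read 6.58, 6.76 and 6.43 in wildtype, below background, and 8.80, 9.51 and 9.08 in Xbp1CartΔEx2. It was at least 2.80-fold higher (adjusted p = 0.00626, called in 5 of 12 leave-one-out fits), and 2 dimmer Aldh1l2 probes had log2 fold changes of 0.47 and 0.49. Psat1, an enzyme of serine synthesis, was 1.35 higher on the log2 scale (adjusted p = 0.0373). Fgf21, a secreted stress hormone, was above background on 1 of the 6 arrays.

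The 11 tested RIDD substrates are transcripts that IRE1 is known to cleave in other cells. By their brightest probes they had a median log2 fold change of -0.18 with none called. Bloc1s1, the substrate found most widely, read 10.50, 10.25 and 9.83 in wildtype and 8.90, 8.82 and 8.58 in Xbp1CartΔEx2, at -1.43 (SE 0.32, adjusted p = 0.0213). Cd59a, a complement inhibitor, lay on the other side with 7.82, 7.51 and 8.60 against 8.86, 10.17 and 9.88, at 1.66 (adjusted p = 0.0238). The remaining 9 had log2 fold changes from -0.60 to 1.07. The study counts Sparc among established RIDD targets. A dimmer Sparc probe was called lower at -2.55, while the brighter Sparc probes had 0.73 and 0.47. Scaling the arrays by their medians in place of quantiles moved the median over all tested probes from 0.01 to 0.34, or to -0.26 when only tested probes set the scale, and the medians of the 7 lists of ER, PERK and RIDD genes changed sign between these scalings, so no direction is given for any of them as a list.

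**Figure D2:**
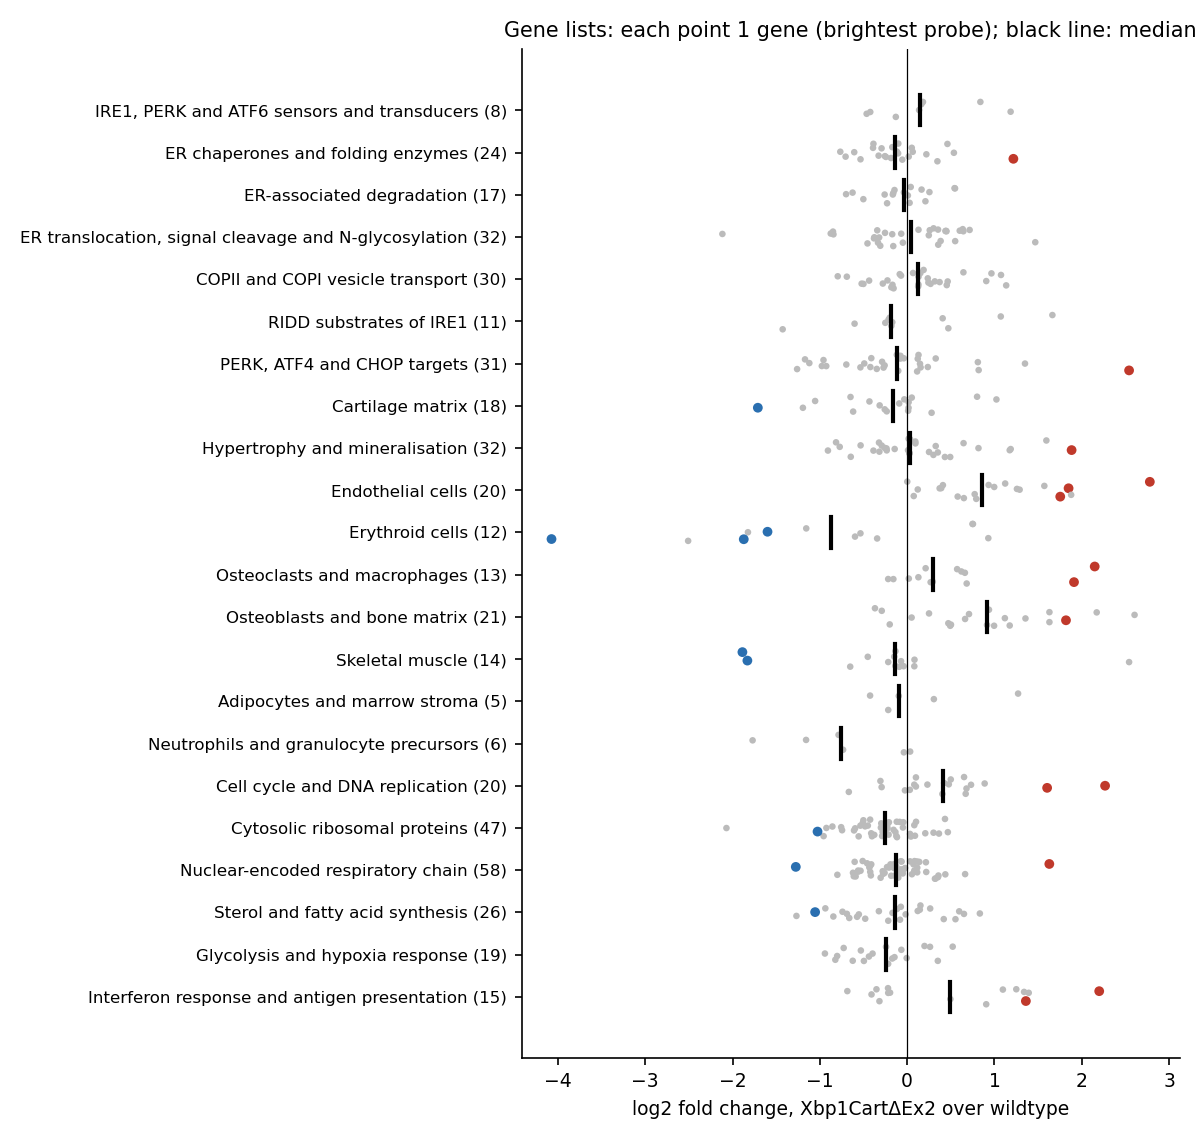
log2 fold change of Xbp1CartΔEx2 over wildtype (x axis) for each tested gene of 22 gene lists (y axis, number of tested genes in brackets), with called genes in red (higher) or blue (lower) and the list median as a black line. The ER lists in the upper rows centre near 0, and the medians of endothelial cells (0.86), bone matrix (0.91) and erythroid cells (-0.88) lie away from it.

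The leading genes called higher did not belong to the ER lists. Adgrf5, an adhesion receptor of endothelial cells, read 6.42, 6.45 and 6.39 in wildtype, below background, and 9.22, 9.21 and 9.16 in Xbp1CartΔEx2, at least 2.94-fold higher (adjusted p = 3.71e-06). Gpn2, a small GTPase, read 6.73, 7.5 and 6.90 against 10.41, 10.75 and 10.58, at least 7.66-fold higher (adjusted p = 5.94e-05). Tomm22, the receptor of the mitochondrial import pore, read 7.51, 8.34 and 7.42 against 11.13, 11.29 and 11.12, a log2 fold change of 3.42 (SE 0.28, adjusted p = 7.13e-05). For all 3 genes every mutant array lay far above every wildtype array. Gpn2 and Tomm22 were called in all 12 leave-one-out fits. So was Adgrf5, but it was above background only on Xbp1CartΔEx2 arrays, so for it the number of fits is no support.

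Bsdc1 read 6.55, 6.91 and 6.57 in wildtype and 10.72, 10.24 and 10.65 in Xbp1CartΔEx2, at least 7.43-fold higher (adjusted p = 7.26e-04, 12 of 12 fits). Fgfr1op2 read 6.27, 6.41 and 6.67 against 9.46, 9.04 and 9.10, at least 2.94-fold higher (adjusted p = 2.71e-05, 12 of 12 fits). Glrx, which encodes the redox enzyme glutaredoxin, read 7.12, 6.32 and 7.41 against 9.53, 10.02 and 10.00, at least 4.62-fold higher (adjusted p = 0.00107, 12 of 12 fits). Riok3, a kinase, Adgrd1, an adhesion receptor, and Slc7a7, a transporter of cationic amino acids, rose at least 2.83-fold, 2.98-fold and 2.09-fold, each called in 12 of 12 fits. Adgrd1 was above background only on Xbp1CartΔEx2 arrays, so for it the number of fits is no support. None of these 6 genes is in a list used here.

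Pdpn, the membrane protein podoplanin that marks early osteocytes and lymphatic vessels, read 6.14, 7.40 and 7.82 in wildtype and 9.75, 11.53 and 10.89 in Xbp1CartΔEx2, a log2 fold change of 3.60 (SE 0.51, adjusted p = 0.00211, 9 of 12 fits). Necap2, an endocytosis adaptor, read 6.74, 7.06 and 6.54 against 10.78, 10.65 and 10.87, at least 8.70-fold higher (adjusted p = 0.00234, 7 of 12 fits). Wildtype arrays were uneven for the homeobox gene Hoxb2, for the annexin Anxa4 and for Ints6l, with 1 wildtype array each at 8.79, 8.61 and 8.74 and the others between 5.93 and 6.88. Hoxb2, Anxa4 and Ints6l had log2 fold changes of 2.86, 2.82 and 2.72 and were called in 2, 3 and 4 fits. AI661453 was at least 2.47-fold higher in 9 of 12 fits.

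**Figure D3:**
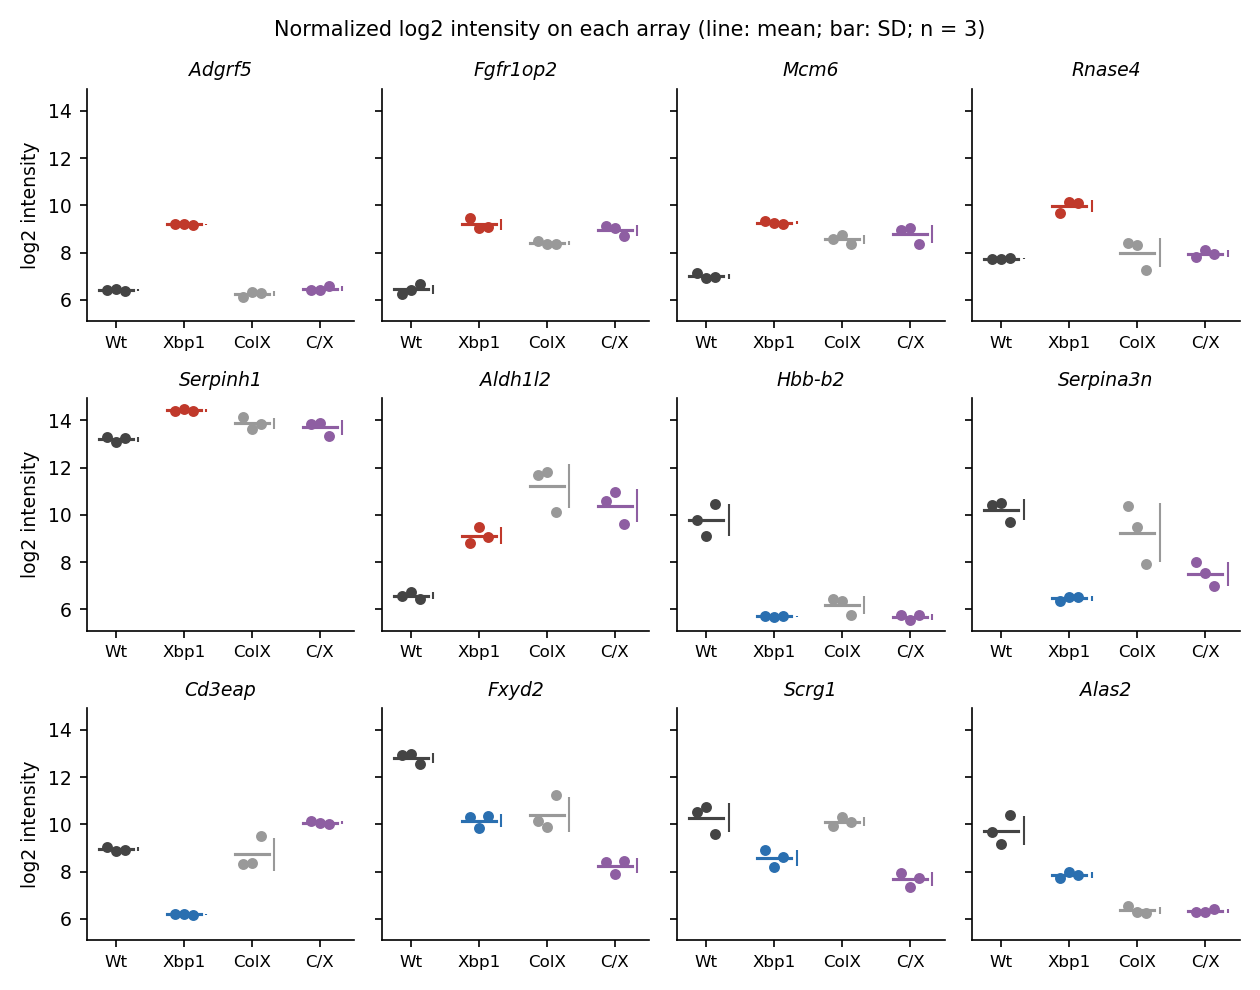
Normalized log2 intensity (y axis) of 12 called genes on each of the 3 arrays of wildtype (Wt), Xbp1CartΔEx2 (Xbp1), ColXN617K (ColX) and C/X, with the mean as a line and the SD as a bar. In every panel the 3 Xbp1CartΔEx2 points lie entirely above or below the 3 wildtype points, as for Serpinh1 (14.39 to 14.48 against 13.09 to 13.29).

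Among the genes called lower, Serpina3n, a secreted protease inhibitor of the acute phase, read 10.42, 10.52 and 9.71 in wildtype and 6.36, 6.52 and 6.54, below background, in Xbp1CartΔEx2. It fell at least 7.71-fold (adjusted p = 0.00118, 11 of 12 fits). Fxyd2, a regulatory subunit of the Na,K-ATPase, read 12.94, 12.96 and 12.57 against 10.31, 9.84 and 10.34, a log2 fold change of -2.66 (SE 0.32, adjusted p = 8.59e-04, 12 of 12 fits). Both differences were many times the spread within a genotype. Cap1, an actin-binding protein, read 10.80, 10.82 and 10.41 against 7.95, 7.57 and 8.08, at -2.81 (SE 0.33, adjusted p = 7.51e-04, 12 of 12 fits). Cd3eap, a subunit of RNA polymerase I, read 9.06, 8.87 and 8.93 against 6.22, 6.22 and 6.18, at least 3.21-fold lower (adjusted p = 2.44e-04, 12 of 12 fits).

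Rps23rg1, a retrogene derived from a ribosomal protein gene, read 9.56, 9.61 and 9.53 in wildtype and 6.82, 6.91 and 7.37 in Xbp1CartΔEx2, at -2.53 (SE 0.26, adjusted p = 2.44e-04, 12 of 12 fits), and its signal cannot be separated from that of near-identical copies. Ndrg2 read 10.22, 10.09 and 9.78 against 6.84, 6.50 and 6.94, at least 6.78-fold lower (adjusted p = 0.00753) but in only 4 of 12 fits. The probe 1700123O20Rik, for an uncharacterized gene, fell at least 4.97-fold in 12 of 12 fits. Extl1, a heparan sulfate glycosyltransferase, and Adk, adenosine kinase, had log2 fold changes of -2.10 and -2.01 (10 and 9 fits). Flywch2 and Ppp2r5d, a phosphatase regulatory subunit, had -2.02 and -1.93 (5 and 4 fits).

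Several calls rested on 1 of several probes for a gene. Of the called genes, 52 had more than 1 tested probe, and for 25 of them another probe had the opposite sign. The called Sparc probe, for a collagen-binding matrix protein, read 10.85, 11.08 and 10.50 in wildtype and 8.17, 8.39 and 8.21 in Xbp1CartΔEx2 (-2.55), whereas 2 brighter Sparc probes had log2 fold changes of 0.73 and 0.47. Brighter probes of Necap2, Riok3 and Supt16 likewise read lower in Xbp1CartΔEx2 at -0.70, -1.23 and -0.94, the brighter Cd3eap probe had 0.28, the brighter probes of Glrx and Adk had -0.18 and -0.02, and 3 further Ppp2r5d probes had 0.16 to 0.45. For Ndufb10, a subunit of respiratory complex I, 1 probe was called lower (-2.19) and the other higher (1.63). Probes of 1700123O20Rik and Extl1 went the same way as the called ones at -1.15 and -1.36, and both Blvrb probes were called lower.

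The 32 tested genes of hypertrophy and mineralisation had a median log2 fold change of 0.03, with 1 called. That gene was Wif1, a secreted inhibitor of Wnt signalling, which read 6.48, 7.03 and 8.11 in wildtype and 8.82, 9.28 and 9.17 in Xbp1CartΔEx2 at 1.88 (SE 0.34, adjusted p = 0.00753, 3 of 12 fits). Ank, a transporter of pyrophosphate that holds back mineral, was 1.19 higher (adjusted p = 0.0185), and Sox5, a cartilage transcription factor, had -0.91 (adjusted p = 0.0305). The collagenase gene Mmp13 had 0.43 and 0.50 by its 2 probes, Vegfa had 0.35 and -0.50, the receptor gene Pth1r had 0.10 and 0.01, and the growth factor gene Bmp8a had 0.22 and 0.08. The cell cycle inhibitor gene Cdkn1c, at 14.37 to 14.61 on all 6 arrays, differed by 0.09. Ccn2 (Ctgf) had 0.02 by a bright probe near the top of the scale and 1.27 by a dimmer one (adjusted p = 0.0888), Gadd45b had -0.81 (adjusted p = 0.0977), Cebpb had 0.33 (adjusted p = 0.558) and Steap1 had -0.24 (adjusted p = 0.659).

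Cartilage matrix genes, 18 in all, had a median log2 fold change of -0.16, with 1 called lower, 6 lower without overlap (33.3%) and 2 higher (11.1%). The called gene was Scrg1, a transcript of differentiating chondrocytes, which read 10.54, 10.73 and 9.59 in wildtype and 8.90, 8.21 and 8.62 in Xbp1CartΔEx2, at -1.71 (SE 0.30, adjusted p = 0.00728, 3 of 12 fits). Mia, a secreted cartilage protein, had -1.05 (adjusted p = 0.0373) and Hapln1, which links aggrecan to hyaluronan, had 1.02 (adjusted p = 0.0929). One of the Col9a1 probes, dimmer than the brightest, was also called, at least 1.57-fold lower, while the brightest had 0.28. The called Col9a1 probe was above background on wildtype arrays only, so it passed the detection filter only through the group where it is high. The list median was 0.01 after scaling by medians of all probes, so no direction is given for the list.

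Genes of endothelial cells stood higher in Xbp1CartΔEx2 as a list. The list of 20 tested genes had 3 called higher, none called lower, 10 higher without overlap (50%, against 19% of all probes) and a median log2 fold change of 0.86, and the median stayed positive under both median scalings (1.36 and 0.76, in both cases 1.02 above the shift of all probes). Besides Adgrf5, the called genes were Pecam1, the junction protein CD31, which was at least 2.14-fold higher (adjusted p = 0.00586, 4 fits), and Hhex, a homeobox factor, which was at least 1.46-fold higher (adjusted p = 0.00169, 10 fits). All 3 called genes were above background on no wildtype, ColXN617K or C/X array, so they passed the detection filter only through the group where they are high, and their calls are no support for a shift of the list. The 10 genes without overlap and the median of 0.86 include these 3, and neither was computed without them. A dimmer probe of Cd93, an endothelial surface receptor, was also called (2.18), and its brighter probe had 1.88 (adjusted p = 0.0145). Flt1, the VEGF receptor VEGFR1, read 9.96, 8.63 and 9.80 in wildtype and 10.92, 11.42 and 10.76 in Xbp1CartΔEx2 (1.57, adjusted p = 0.027), and Cdh5, which encodes VE-cadherin, had 1.12 (adjusted p = 0.017). The list stood lowest on wildtype array 2 and highest on Xbp1CartΔEx2 array 2. Its summed level was 14.76, 13.57 and 14.68 in wildtype and 14.81, 15.51 and 14.77 in Xbp1CartΔEx2, so that without wildtype array 2 the median was 0.47.

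Bone matrix genes shifted with them. Of 21 tested genes, 14 were higher without overlap (66.7%) and none lower, with a median log2 fold change of 0.91 (1.10 and 0.50 under the median scalings, 0.76 above the shift of all probes). Bglap2, an osteocalcin gene made by osteoblasts, read 10.29, 9.58 and 9.76 in wildtype and 11.42, 13.37 and 12.67 in Xbp1CartΔEx2 (2.60, SE 0.57, adjusted p = 0.0172). Col1a2, which encodes a chain of type I collagen, read 9.27, 8.77 and 10.02 against 10.96, 12.42 and 11.20 (2.17, adjusted p = 0.0425), and Dcn, the matrix proteoglycan decorin, had 1.63 (adjusted p = 0.0247). The called gene was Kazald1, at least 2.33-fold higher (adjusted p = 0.00466, 8 fits), and a dimmer probe of the collagen gene Col24a1 was called at least 1.27-fold higher (1 fit). The median was 0.63 without Xbp1CartΔEx2 array 2 and 0.69 without wildtype array 2. The dissected zone borders on vascular bone, and a difference in how much bone and vessel tissue each sample held cannot be told apart from a difference in expression within a cell type.

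Erythroid genes shifted the other way. Of 12 tested genes, 3 were called lower, 8 were lower without overlap (66.7%, against 17.8%) and 1 higher, and the median log2 fold change was -0.88 (-0.81 and -1.41 under the median scalings, -1.15 relative to the shift of all probes). Hbb-b2, a minor beta-globin gene of the adult, read 9.78, 9.11 and 10.45 in wildtype and 5.71, 5.68 and 5.74, below background, in Xbp1CartΔEx2, at least 5.71-fold lower (adjusted p = 2.71e-05, 12 of 12 fits), and was above background on wildtype arrays only. Hbb-b2 thus passed the detection filter only through the group where it is high, and it is no support for a shift of the list. The counts and the median of the list include it. Alas2, the first enzyme of haem synthesis in red cells, read 9.68, 9.16 and 10.38 against 7.74, 7.99 and 7.87 (-1.87, SE 0.26, adjusted p = 0.00211, 9 fits), and Blvrb, a reductase abundant in red cells, read 12.02, 11.99 and 11.93 against 10.35, 10.44 and 10.35 (-1.60, SE 0.19, adjusted p = 7.51e-04, 12 fits). Alad, a further haem enzyme, fell by 1.69 on the log2 scale (adjusted p = 0.00767, 4 fits). Hba-a1, an alpha-globin gene, had -1.82 (adjusted p = 0.0174), and Slc4a1, the red cell anion exchanger, had -2.51 (adjusted p = 0.08) with wildtype arrays from 8.98 to 12.16.

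The beta-globin probes did not all follow Hbb-b2. A dim probe of Hbb-bt, another beta-globin gene, was called higher, with 6.27, 6.19 and 6.52 in wildtype and 8.98, 8.12 and 8.85 in Xbp1CartΔEx2 (at least 2.01-fold, adjusted p = 0.00586, 5 fits), while the 3 brighter Hbb-bt probes had log2 fold changes of -0.97, -0.60 and -0.39. The beta-globin genes are near-identical copies that hybridization may not separate, so the value of any 1 of them is uncertain. Averaging all probes of each gene, the erythroid median was -0.58. Prdx2, a peroxidase abundant in red cells, was called higher by a dim probe (1.91, 3 fits), and its brightest probe had 0.75 (adjusted p = 0.121).

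**Figure D4:**
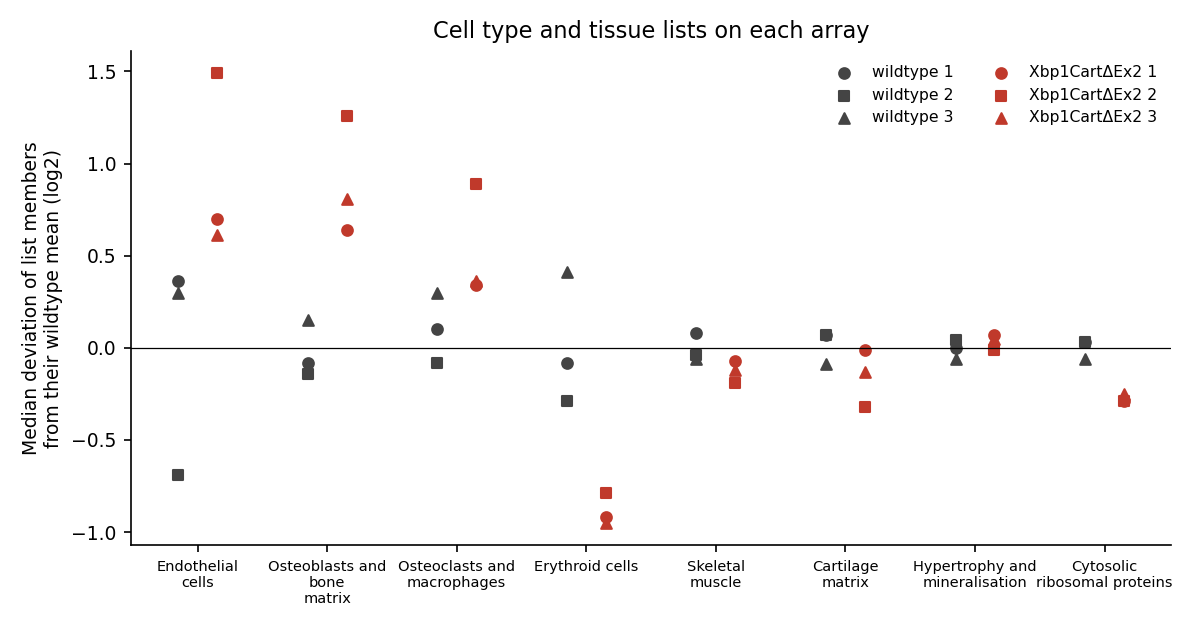
Median deviation of the members of 8 gene lists from their wildtype means (y axis, log2) on each of the 3 wildtype arrays (grey) and the 3 Xbp1CartΔEx2 arrays (red), with marker shape for the array number. Endothelial and bone lists lie higher on all 3 Xbp1CartΔEx2 arrays (0.61 to 1.49 and 0.64 to 1.26), erythroid genes lie lower (-0.95 to -0.79), and the hypertrophy list stays near 0.

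The medians of the other cell type lists depended more on single arrays or on the scaling. Osteoclast and macrophage genes, 13 in all, had a median log2 fold change of 0.29, which was 0.63 without Xbp1CartΔEx2 array 1 and 0.86 after scaling by medians of all probes (0.52 above the shift of all probes), with 2 called higher: Clcn7, the chloride channel osteoclasts use to dissolve mineral (at least 3.42-fold, adjusted p = 2.02e-04, 12 fits), and Csf2ra, the GM-CSF receptor chain (at least 2.01-fold, adjusted p = 8.59e-04, 12 fits). Ctsk, the main collagen-degrading protease of osteoclasts, had 0.62 (adjusted p = 0.192), and Csf1r had 0.29. Skeletal muscle genes, 14 in all, had a median of -0.13, with Tnni2 and Myl3, a troponin and a myosin light chain, called lower (-1.83 and -1.89, 3 and 8 fits). Acta1, skeletal actin, was above background in Xbp1CartΔEx2 only, at least 4.69-fold higher with an adjusted p of 0.0912, and Ckm, Myl1 and Tnnt3 stood between 6.24 and 6.68 in both genotypes, so defining muscle genes were near background. The 6 genes of neutrophils had a median of -0.76, which became -1.29 without wildtype array 1 and 0.08 without wildtype array 3, and the 5 of adipocytes -0.10, with Lpl, lipoprotein lipase, at 1.27 (adjusted p = 0.0414).

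Housekeeping groups held few calls and small shifts. Of 47 cytosolic ribosomal protein genes, 25 were lower without overlap (53.2%, against 17.8%) and 4 higher (8.51%), with a median log2 fold change of -0.25 that stayed negative under both median scalings (-0.05 and -0.65, -0.39 relative to the shift of all probes). The called gene was Rps15, which read 11.98, 12.04 and 11.71 in wildtype and 10.94, 11.07 and 10.64 in Xbp1CartΔEx2 (-1.03, SE 0.18, adjusted p = 0.00752, 2 fits), and Rpl26 and Rps7 had -0.96 and -0.76 (adjusted p = 0.048 and 0.0364). A dim probe of Rps13 was called higher, at least 2.37-fold in 6 fits, while its brightest had -0.50. Many ribosomal genes have near-identical processed copies that these probes may also detect.

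Among 58 nuclear respiratory chain genes, the median was -0.13, with Ndufa11 called lower (-1.28, adjusted p = 0.00408, 7 fits) and Ndufb10 called in opposite directions by its probes, and 16 were lower and 8 higher without overlap. The mitochondrial chromosome had 1 of its 6 tested probes called, for ND5, a complex I subunit, which read 7.77, 7.81 and 7.78 in wildtype and 6.05, 6.04 and 6.06 in Xbp1CartΔEx2 (at least 1.43-fold lower, adjusted p = 0.00163, 10 fits). Of 26 sterol and fatty acid synthesis genes, Pmvk, phosphomevalonate kinase, was called lower (-1.05, adjusted p = 0.00428, 5 fits), and Mvk, the enzyme before it, had -1.27 (adjusted p = 0.0145). Fdps, later in that pathway, had -0.74 (adjusted p = 0.0387), whereas Insig1, which restrains sterol synthesis, had 0.83 (adjusted p = 0.0367), and the list median was -0.14. Under the median scalings the list median changed sign for respiratory chain genes (0.19 and -0.41), sterol genes (0.11 and -0.49) and the hypertrophy genes above (0.22 and -0.38). Of 19 glycolysis and hypoxia genes none was called and 8 were lower without overlap (42.1%), with a median of -0.24 (-0.06 and -0.66 under the median scalings) and with Pfkl, Pfkm and Tpi1 at -0.94, -0.80 and -0.62 (adjusted p from 0.035 to 0.045).

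Cell cycle genes, 20 in all, had a median log2 fold change of 0.41, which was 0.11 without wildtype array 2. Mcm6, a subunit of the replicative helicase, was called higher by 1 of its 3 probes, reading 7.13, 6.92 and 6.98 against 9.36, 9.26 and 9.21 (at least 3.10-fold, adjusted p = 1.59e-04, 12 fits), and the others had -0.27 and 0.45. Cdkn2b, the inhibitor p15, was at least 1.57-fold higher (adjusted p = 0.00975, 3 fits), so genes that drive and genes that restrain division were both among the calls. Interferon and antigen presentation genes, 15 in all, had a median of 0.49, which was -0.01 without wildtype array 2. Tap2, a peptide transporter of antigen presentation, was at least 2.31-fold higher (adjusted p = 8.59e-04, 12 fits) and Lgals3bp at least 1.14-fold higher (adjusted p = 0.00558, 4 fits).

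XBP1 loss was also measured on the collagen X mutant background, as C/X over ColXN617K, from 6 arrays that share no sample with the comparison above. There 401 probes were called higher (3.34%) and 232 lower (1.93%). Of the 141 probes called higher without the mutation, 18 were also called higher with it (12.8%), and of the 71 called lower, 15 were (21.1%). The 33 probes called in the same direction in both comparisons were 15.6% of the 212 and 5.21% of the 633 called on the mutant background. The sign was the same for 63.1% of the probes called higher and 78.9% of those called lower, beside 51.2% of all tested probes. The median log2 fold change of these probes on the mutant background was 0.17 and -0.66.

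The shared group held several of the leading genes. Gpn2, Tomm22 and Bsdc1 had log2 fold changes of 3.30, 2.78 and 2.95 in C/X over ColXN617K (adjusted p = 5.87e-05, 1.53e-04 and 0.00165), and Clcn7 had 1.92 (adjusted p = 2.23e-04). Nes, the intermediate filament nestin, had 1.84 on both backgrounds, and Jtb, a membrane protein, had 1.45 without the mutation and 1.52 with it. Among lower genes Cap1 was at least 8.28-fold lower on the mutant background, with no C/X array above background (adjusted p = 6.74e-05). Fxyd2 and Rps23rg1 had -2.16 and -2.80 there (adjusted p = 0.00145 and 7.47e-05), and Scrg1, Alad and Ecrg4, a secreted peptide precursor, had -2.42, -2.47 and -2.09. The called Sparc probe fell there too (-2.47), but the brighter Sparc probes rose there, by 3.49 (adjusted p = 1.51e-05, limma) and 0.74. No shared direction is therefore given for Sparc. The unnamed probe ILMN_1214408, singled out after its values were seen, read 13.05, 12.97 and 12.80 in wildtype and 7.51, 7.61 and 7.75 in Xbp1CartΔEx2 (-5.32, adjusted p = 3.71e-06), and it fell by 5.77 on the log2 scale on the mutant background. Adk, Glrx and Serpinh1 were not called there, at -0.77, 0.05 and -0.18.

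The difference between these effects of XBP1 loss was tested directly and called for 205 of the 12023 probes (1.71%), 48 of them among the 212. Because the 212 were chosen by the change on 1 side of this difference, the 48 are a description. For 13 of the 48, Adgrf5, Hhex and Hbb-b2 included, no ColXN617K or C/X array was above background, so a change on that background could not be measured and no difference of the effects is shown for them. Lamc1, a laminin chain, and Npc1, a lysosomal cholesterol transporter, were above background on all 12 arrays and differed by -2.31 and -2.20 on the log2 scale (adjusted p = 0.00153 and 0.00143). Opposite calls on the 2 backgrounds were made for 5 probes. Lamc1 and Npc1 were higher without the mutation and lower with it (-1.05 and -1.13), and so was Anxa4, at least 6.23-fold lower in C/X, where no array was above background. A second Npc1 probe had -0.49 without the mutation and a difference of 0.21. A dimmer Anxa4 probe, above background on no wildtype or Xbp1CartΔEx2 array, had -0.69 with the mutation and a difference of -0.66, neither called. Cd3eap was lower without the mutation and higher with it (1.34) by 1 probe, while its brighter probe had 0.28 and 0.76 and a difference of 0.48 (adjusted p = 0.416). The unnamed probe ILMN_2540464 was at least 11.6-fold lower without the mutation and 1.80 higher on the log2 scale with it.

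Dnajb9, the ER co-chaperone, had a log2 fold change of -1.91 on the mutant background (adjusted p = 0.00131) beside -0.53 without it, and its difference was not called. Mbtps1, the protease that activates ATF6, had 1.78 with the mutation and -0.42 without (difference 2.20, adjusted p = 0.00174). Copa and Tram1 ran the other way, with differences of -1.69 and -1.35 (adjusted p = 0.00966 and 0.00825). The list medians on the mutant background were 0.19 for endothelial, 0.07 for bone matrix and 0.00 for erythroid genes, beside 0.86, 0.91 and -0.88 without the mutation. These differences between list medians were not tested. The median level of the endothelial list was 6.86 to 6.97 on ColXN617K arrays and 6.82 to 8.07 on C/X arrays, against 8.76 to 9.93 in wildtype. Many of these genes thus lay near background on the mutant background, where a change can hardly be measured. The median of 0.19 therefore does not show that the shift was absent there.

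**Figure D5:**
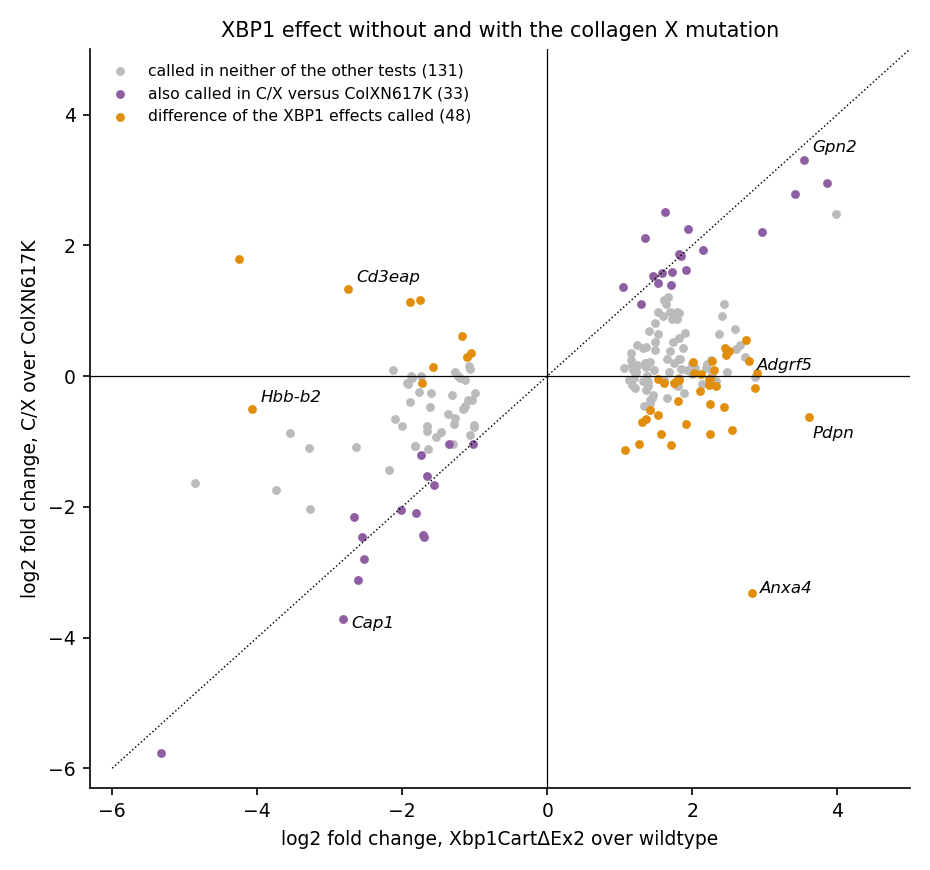
log2 fold change of C/X over ColXN617K (y axis) against Xbp1CartΔEx2 over wildtype (x axis) for the 212 called probes, coloured by whether the other comparison also called them (33), the difference of the effects was called (48) or neither (131), with the dotted line marking equal effects. Gpn2 lies near that line, and 37 of the 212 probes, Adgrf5 and Hbb-b2 included, were above background on no ColXN617K or C/X array, so their position on the y axis is not a measured effect.

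By position, the called probes were spread over the genome, with some local concentrations singled out after their values were seen. Chromosome 14 had 13 of 338 named probes called (3.85%) and chromosome 4 had 24 of 642 (3.74%), against 173 of 9853 overall (1.76%). Among 142 blocks of 50 neighbouring tested genes, 50 held no called gene, 50 held 1, 30 held 2, and the fullest held 7. That block lies on chromosome 14 and holds Rnase4, Supt16, Slc7a7 and Prmt5, called higher, and Ndrg2, 1700123O20Rik and Ngdn, called lower, with a median log2 fold change of -0.12 over its 60 probes. The block of chromosome 11 that holds Xbp1 itself had 2 called genes, Ap1b1, lower, and Emid1, higher.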

How the data were processed

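The authors deposited linear bead intensities of 12 arrays that had not been normalized, with a detection score per probe (1 minus the detection p), and their own log2 values after neqc background correction and quantile normalization. The scanner software is not given in the sources used here. The intensities were corrected and quantile-normalized with neqc (limma 3.58.1, R 4.3.3, offset 16), and the result lay within 0.0339 of the deposited log2 values. Probes whose score passed 0.95 on 3 or more arrays were fitted with limma as 4 genotype means over the 12 arrays, with p-values adjusted over all 12023 probes by Benjamini-Hochberg. A probe was called at a fold change of 2 or more and an adjusted p of 0.01 or less. Probe annotation was updated through gene identifiers to RefSeq names (GRCm38.p6), which also gave chromosomes and promoters. A gene in a list is represented by its brightest tested probe.

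Named genes were the 15 largest changes in each direction with 1 symbol and no overlap, called list members, members of ER lists, up to 4 members of each other list, Xbp1, Col10a1, genes the study measured by qPCR, called genes of the chromosome with the highest share called, and calls shared with the other comparisons. Members and lists were chosen with earlier results of these data known. In simulated data for the Xbp1CartΔEx2 comparison on 12023 probes, 0, 4, 36 and 44 of 50 probes changed 1.5-fold, 2-fold, 4-fold and 8-fold were called, and 0 of 11823 unchanged ones. Each simulated probe had independent normal noise around 1 mean, with no array-wide shift, no detection limit and no difference in sex or tissue content. These counts therefore give no error rate for the measured arrays. Alternatives covered background correction, normalization, the filter, the arrays fitted, weights, replicate blocks and thresholds. The class of probes that the authors removed for poor matching was not removed here.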

Additional observations from a re-analysis of the deposited data

Results flagged for a closer look

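For 20 of the named genes the direct test of the difference between the collagen backgrounds passed its limits (limma, fold change of the effects of at least 2, adjusted p of 0.01 or less). Values are the measured log2 fold change of C/X over ColXN617K minus that of Xbp1CartΔEx2 over wildtype, and genes called without the mutation enter with that side already large.

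Of these values, 10 rest on a genotype without any array above background, so they are not sizes of an effect. Adgrf5 (-2.55), Hhex (-1.86) and Hbb-b2 (3.58) were above background on no ColXN617K or C/X array, and show no difference of the effects of XBP1 loss. No wildtype array was above background for Aldh1l2 (-3.36), Glrx (-2.85), Csf2ra (-2.64), Fgfr1op2 (-2.19) and Mcm6 (-2.04), no C/X array for Anxa4 (-6.14), and no Xbp1CartΔEx2 array for Cd3eap (4.08).

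The other values were -4.23 for Pdpn, -2.31 for Lamc1, -2.28 for Rnase4, -2.20 for Npc1, -1.70 for Supt16, -1.69 for Copa and -1.35 for Tram1, and 2.20 for Mbtps1, 1.54 for Rps7 and 1.41 for Pmvk. Copa, Tram1, Mbtps1 and Rps7 were not called without the mutation. Other probes of some genes went otherwise: the difference was 0.11 by the brighter Supt16 probe, 1.32 by another Mcm6 probe, 0.48 by the brighter Cd3eap probe, 0.21 by another Npc1 probe and -0.97 by the brighter Glrx probe. By the dimmer Aldh1l2 probes the difference was 0.82 and -0.99. By a dimmer Anxa4 probe, above background on no wildtype or Xbp1CartΔEx2 array, it was -0.66. ColXN617K array 3 had a weight of 0.122 when arrays were weighted by their fit, and the number of differences called was 820 without it, against 205 with it.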

How the results depend on the processing

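Of the 297 named genes, 94 were called, and none of these changed sign in any alternative. That is a weak check, since they were picked for large changes on the same arrays. The count of 212 called probes moved with most choices. It was 126 without background correction (72 higher, 54 lower), 8 with scaling by medians of all probes (5 and 3), 95 with medians of tested probes (44 and 51), 109 without a filter on dim probes, 762 with array weights, 606 at an adjusted p of 0.05 and 858 at 0.05 with no fold minimum. Probes above background on all 6 arrays, a setting added after seeing the data, gave 73. It ranged from 57 to 480 when 1 array was left out, with 57 and 72 without wildtype arrays 1 and 2, 105, 78 and 63 without Xbp1CartΔEx2 arrays 1, 2 and 3, 135 and 480 without ColXN617K arrays 1 and 3, and 116 and 140 without C/X arrays 1 and 2. For C/X over ColXN617K the count of 633 became 269 without background correction, 17 with medians of all probes, 383 without the filter, 1541 with weights, 1146 at an adjusted p of 0.05 and 1809 with no fold minimum, and 235 (without C/X array 1) to 1189 (without ColXN617K array 3) when 1 array was left out. The 205 differences became 1 and 118 with the median scalings, 123 without the filter, 2159 with weights, 879 at an adjusted p of 0.05 and 896 with no fold minimum, and 55 (without Xbp1CartΔEx2 array 3) to 820 (without ColXN617K array 3). The causes were not tested, except that fewer arrays or probes entered the fits that left some out. Of 94 named calls, 35 were made in all 12 leave-one-out fits, 4 with medians of all probes, 43 with medians of tested probes, 53 without background correction, 49 with the block on description numbers and 94 on the deposited log2 values.

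Replicate numbers were not used to pair the samples. Between wildtype and Xbp1CartΔEx2 arrays with the same title number, deviations from the genotype means correlated at 0.03, -0.33 and -0.08. For arrays with different title numbers the values ran from -0.24 to 0.28. With 3 arrays per genotype these values do not decide whether the numbers mark pairs, and description numbers were not compared in this way. A block on the title number gave 205 calls and 179 differences, and a block on the number in the sample descriptions, which differs from it, gave 86 and 107.

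Detection limits the dim probes, since 94 of the 141 probes called higher were above background on no wildtype array and have only a bound there.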
